A study of Mus musculus with 3 samples.

Results

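The genes described here are named for proteins of the mitochondrial ribosome. They were followed in mouse bone marrow-derived dendritic cells cultured with or without rATB, the recombinant B chain of articulatin. Articulatin is a ribosome-inactivating protein of mistletoe whose other chain is the enzyme. The genes were taken as the rows of the deposited table whose symbol began with Mrpl or Mrps followed by a digit, without pseudogene symbols. The rule gave 76 genes of the 34590 symbols in the table, 47 named Mrpl and 29 named Mrps, and no measured value entered it. Of the 76, 74 passed a filter of at least 1 unit on average over the 3 libraries, as did 12559 of all genes. Mrpl53 and Mrps36 did not.

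All cells were primary cells grown from mouse bone marrow in GM-CSF, a growth factor for granulocytes and macrophages that also yields dendritic cells, and those still floating on day 6 were taken. The control then received no addition, a further culture received buffer and another rATB at 800 ng/ml, each for 48 h. Neither mouse strain nor age is stated in the sources used here. For the buffer library a dose of 1 ng/ml is labelled, and what it refers to is unclear. Each group was 1 library, so no test of a treatment was possible, and every difference below is between libraries without a check of the spread between cultures.

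The libraries held 15203139 to 17776492 reads. Levels are given in units: the count after the deposited scaling, divided by the control library's total and multiplied by 1000000. In those terms 1 unit stood for 15.7 to 17.8 reads. Each ratio of levels is followed by its exact 95% interval, which covers counting error only. Dendritic cell markers were detected in all libraries: Itgax, which encodes CD11c, stood at 1200 units in the control, 1213 with buffer and 980.7 with rATB. The summed level of the 7 dendritic cell markers, most of it Cd74, was 13830, 11441 and 8956 units in the same order, that of 7 macrophage markers 2182, 1616 and 1448, and that of 4 genes of dividing cells 286.1, 304.7 and 214.9. The dendritic cell list split: Ccr7 stood above both other libraries with rATB, at 621.4, 722.9 and 1252 units, as did Flt3, at 5.29, 7.20 and 12.8, and Zbtb46 was also highest there, at 35.1, 38.1 and 38.8. Its other 4 markers lay below both. The macrophage list split too: beyond counting error, 3 of its 7 markers were above buffer with rATB and 4 below. Of the 7, 1 lay above both libraries in that way (all genes 11.4%) and 4 below both (15.4%). Neutrophil markers summed to 52.4 units in the control, 41.6 with buffer and 40.7 with rATB. The 3 of them past the filter differed between rATB and control by -1.64 to 0.25 in log2(units + 1). Markers of T and NK cells summed to 0.890 to 2.08 units, of B cells to 0.338 to 0.890 and of mast cells, basophils and eosinophils to 0.394 to 0.995. Fcer1a and the 3 erythroid markers were at 0. In bulk RNA, fewer cells of a type and less RNA per cell cannot be told apart. The part of these markers in the values below was not tested.

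The mitochondrial ribosome translates the messenger RNAs of the mitochondrial genome, which encode core subunits of the respiratory chain. Its ribosomal RNAs are encoded in the mitochondrion, whereas all of its proteins are encoded in the nucleus, made in the cytosol and imported. Many of these proteins descend from bacterial ribosomal proteins, and others were added in the evolution of mitochondria. The large subunit joins amino acids and holds the exit tunnel, and the small subunit reads the messenger RNA.

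The family kept nearly the same level in all 3 libraries. Its summed level was 1750 units in the control, 1675 with buffer and 1731 with rATB. The rATB library stood at 1.03 times the buffer library (interval 1.02 to 1.05) and at 0.989 times the control (0.973 to 1.01), and buffer stood at 0.957 times the control (0.941 to 0.972). These small ratios followed the scaling of the libraries. Scaled to the total reads of each library, the sum with rATB was 1.01 times buffer and 1.02 times the control, and that with buffer was 1.01 times the control, so that the ratios to the control changed side. As a share of all reads, the family took 0.175% of the control, 0.178% of the buffer library and 0.179% of the rATB library.

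No member differed by 2-fold between any pair of libraries in log2(units + 1), a scale that shrinks differences between low values. Over all genes past the filter, 1.57% did so between rATB and buffer, 1.83% between rATB and control and 0.0557% between buffer and control. A smaller size, called the 5 to 4 rule, was a difference of at least 0.32 in log2(units + 1) either way. By it, 4 members were higher with rATB than with buffer (all genes 9.91%) and 1 was lower (11.3%). Compared with the control library, 2 members were above it by that size (8.62%) and 2 below (13.6%). Between buffer and control no member was higher (3.20%) or lower (5.02%) at that size. In all, 5 of 74 members, or 6.76%, were past the 5 to 4 rule between rATB and buffer, against 21.2% of all genes.

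Over the 74 members, the median difference of the rATB library from buffer was -0.0021 and from the control -0.035. Buffer less control gave -0.049. The medians over all genes were -0.0024, -0.056 and -0.052 in the same order. Members thus lay around the same centre as all genes, with a narrower spread. A ratio within 1.1-fold was found for 48 members between rATB and buffer, or 64.9%, and for 45.9% of all genes. The standard deviation of the members' log2 ratios was 0.17 between rATB and buffer, 0.19 between rATB and control and 0.12 between buffer and control. Counting error alone amounted to 0.14, 0.13 and 0.13 on the same scale, so between buffer and control the spread around the shared shift was about that error. With the deposited scaling that shift was downward with buffer: 8 of 74 members lay below the control and 0 above it with intervals excluding 1. Of the 12559 genes past the filter, 2747 lay below and 705 above in that way, so the shift was not particular to the family. For all genes, the spread was 0.40, 0.41 and 0.24 and the counting error 0.18 in each case.

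**Figure D1:**
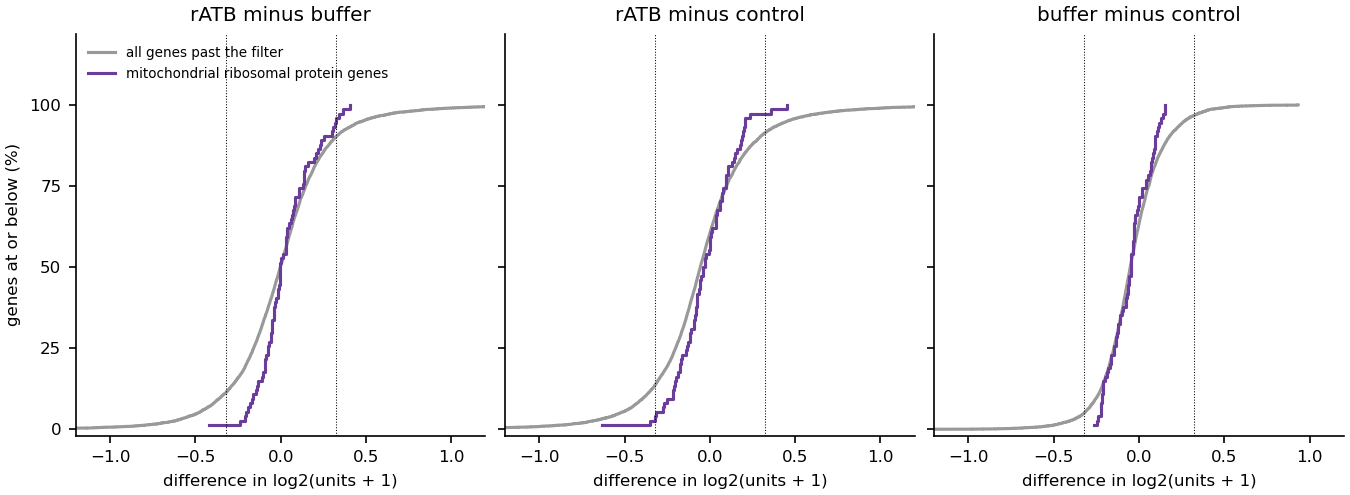
Cumulative share of genes (percent) by their difference in log2(units + 1) for each pair of libraries, for the 74 mitochondrial ribosomal protein genes and the 12559 genes past the filter. Dotted lines mark the 5 to 4 rule; the curve of the family crosses its middle beside that of all genes and is steeper, with 5, 4 and 0 members beyond the lines.

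The spread differed with level and the members were compared with genes of like level and length. The background here was the 11229 protein-coding genes past the filter. Among genes of 20 to 80 units, 0 of 40 members and 13% of protein-coding genes were past the 5 to 4 rule between rATB and buffer. Mrps21, whose ratio was 1.26, was just short of it at 0.318 in log2(units + 1). Among genes of 5 to 20 units, 5 of 30 members were past the rule, or 16.7%, and 25.8% of protein-coding genes. Members are short, with a median coding length of 582 bases against 1392 for all protein-coding genes past the filter. Among genes with a coding length under 600 bases, the median difference between rATB and buffer was 0.03 for 37 members and 0.04 for all 1383 protein-coding genes.

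The rATB library held the highest level of the 3 for 28 members, or 37.8% (all genes 33.2%), and the lowest for 33, or 44.6% (44.1%). Its level lay above both other libraries, with both intervals excluding 1, for 4 members (all genes 11.4%): Mrps6, Mrps16, Mrpl13 and Mrps21. It lay below both in that way for 1 member (15.4%), Mrps28. The shares of members highest and lowest lie near those of all genes, and none of the 4 shares was tested. With median-of-ratios factors the order turned, to 41.9% of members highest and 35.1% lowest, beside 38.9% and 39.6% of all genes. With each of the 3 other scalings, Mrpl14, Mrpl27, Mrpl45 and Mrps35 also lay above both, with both intervals excluding 1. With median-of-ratios factors Mrps24 did too, which made 8 or 9 members. The share of all genes above both was not computed for these scalings, so 8 or 9 has no background here. Mrps28 remained the member below both.

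Promoters of the family were compared by their letters, because the rule did not use them and because nuclear respiratory factor 1 (NRF1) and the ETS factor GABP are textbook regulators of nuclear genes for mitochondrial proteins. RefSeq windows of 300 bases on GRCm38.p6, 250 before and 50 after a start, were at hand for 69 of the 76 genes, in 75 windows. Exact letters were sought on both strands. TGCGCA, the core of the NRF1 site, was found in 29.3% of the family's windows, 7.76% of all 32851 windows and 13.7% of the windows of genes past the filter. A longer spelling of its other side, GCATGCG, which overlaps it in part, was found in 10.7%, 3.58% and 6.36%.

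CCGGAAG, the ETS core, was found in 34.7% of the family's windows, 8.86% of all windows and 17.5% of those of genes past the filter. The longer CCGGAAGT, which contains it, was found in 16.0%, 3.89% and 8.02%. NRF1 or ETS letters, or both, were present in 41 of the 75 windows, or 54.7%, against 16.8% and 30.2%. The YY1 letters AAGATGG were found in 17.3%, 6.34% and 7.11%, and AAGATGGCG, which contains them, in 10.7%, 1.40% and 3.01%. The remaining letters stood nearer to the windows of genes past the filter: GGGGCGGGG (Sp1) in 20% against 20.9%, CACGTG (E-box) in 9.33% against 10.1%, and TATAAA in 6.67% against 7.0%.

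The 250 bases before the start are printed for 5 members among those furthest above and below both libraries, chosen after their values and letters were seen, and 4 of them held such letters. Among the 10 furthest above, Mrps21, Mrpl14, Mrps24 and Mrpl55 held neither kind in these bases. Among the 10 furthest below, Mrpl40, Mrpl46, Mrps2 and Mrpl20 held neither kind, besides Mrpl35. Letters of Mrpl13, Mrps34 and Mrps35 among those above, and of Mrps28 among those below, are not given here. A gene not named here therefore need not hold such letters. Capitals mark NRF1 or ETS letters, and each run reads 5′ to 3′ on the gene's strand. Mrps6 (chr16:92058086-92058335, plus strand) and the upstream start of Mrps16 (chr14:20393635-20393884, minus strand) held TGCGCA. Mrpl27 (chr11:94653541-94653790, plus strand) held CCGGAAGT. Mrpl22 (chr11:58171414-58171663, plus strand) held both kinds, and Mrpl35 (chr6:71823785-71824034, minus strand) held neither.
Mrps6: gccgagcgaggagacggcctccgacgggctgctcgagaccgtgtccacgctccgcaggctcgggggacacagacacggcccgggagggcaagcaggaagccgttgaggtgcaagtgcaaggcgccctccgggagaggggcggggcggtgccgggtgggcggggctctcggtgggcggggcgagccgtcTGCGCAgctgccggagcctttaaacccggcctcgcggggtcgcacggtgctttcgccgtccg
Mrps16: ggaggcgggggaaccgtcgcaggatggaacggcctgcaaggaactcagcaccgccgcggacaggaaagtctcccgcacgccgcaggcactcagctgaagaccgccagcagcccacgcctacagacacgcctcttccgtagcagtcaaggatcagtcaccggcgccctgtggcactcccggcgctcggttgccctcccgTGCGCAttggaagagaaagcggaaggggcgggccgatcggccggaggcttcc
Mrpl27: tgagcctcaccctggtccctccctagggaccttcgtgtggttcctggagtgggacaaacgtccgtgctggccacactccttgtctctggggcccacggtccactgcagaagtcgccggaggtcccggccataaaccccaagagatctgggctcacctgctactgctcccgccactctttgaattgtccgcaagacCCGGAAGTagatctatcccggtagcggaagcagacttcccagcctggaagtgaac
Mrpl22: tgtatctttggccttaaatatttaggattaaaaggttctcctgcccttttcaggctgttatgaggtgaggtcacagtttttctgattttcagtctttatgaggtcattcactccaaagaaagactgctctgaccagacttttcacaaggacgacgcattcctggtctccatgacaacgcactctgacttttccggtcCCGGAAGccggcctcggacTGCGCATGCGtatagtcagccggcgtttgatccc
Mrpl35: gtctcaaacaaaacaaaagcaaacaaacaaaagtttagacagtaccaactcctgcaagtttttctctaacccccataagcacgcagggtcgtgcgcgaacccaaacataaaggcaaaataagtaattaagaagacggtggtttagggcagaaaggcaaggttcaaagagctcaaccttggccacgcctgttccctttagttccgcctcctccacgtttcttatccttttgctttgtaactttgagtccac

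Members with and without these letters had like values. The median difference between rATB and buffer was -0.0047 for 22 members with NRF1 letters, 0.034 for 23 with ETS letters and -0.0017 for 33 with neither. Between rATB and control the medians were -0.013, -0.052 and -0.073. The letters were thus present in promoters of members that stood above, at and below the other libraries.

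Among the 16 small-subunit proteins with a bacterial counterpart, 3 stood above both libraries with rATB beyond counting error, or 18.8% (all genes 11.4%). In the same class 1 lay below both (15.4%). Of the 10 small-subunit proteins specific to mitochondria, 0 lay above both. These shares were not tested. Mrps6 had 7.31 units in the control, 7.96 with buffer and 10.4 with rATB, which was 1.30 times buffer (interval 1.03 to 1.65) and 1.42 times the control (1.12 to 1.80). Mrps6 was the only member past the 5 to 4 rule above both other libraries, and under the scaling to total reads it was just short of that size against buffer, at 0.31 on the log2 scale. In the annotation, 19.9% of its exon bases also lie in exons of Slc5a3 and Gm49711 on the same strand. Slc5a3 stood at 3.49, 3.92 and 4.07 units.

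Mrps16 had 28.1, 29.2 and 36.4 units in control, buffer and rATB, with a ratio of 1.24 to buffer (1.1 to 1.41) and 1.29 to the control (1.14 to 1.46). Mrps21 had 29.2, 26.9 and 33.8 units, with ratios of 1.26 (1.11 to 1.43) and 1.16 (1.02 to 1.31). For Mrps16 the control and buffer libraries lay close together and the rATB library stood apart. For Mrps21 the buffer library was the lowest, and the rATB library lay nearer to the control than to buffer. Mrpl13, of the large subunit, also lay above both libraries. It had 33.3, 33.7 and 39.3 units, with ratios of 1.17 (1.04 to 1.31) and 1.18 (1.05 to 1.32).

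With the deposited scaling, 11 of 74 members lay above buffer and 2 below it with intervals excluding 1. Of the 12559 genes past the filter, 2463 lay above and 2510 below in that way. Some of these members stood above buffer by more than counting error but not above the control. Mrpl27, whose bacterial counterpart reaches towards the peptidyl transferase centre, had 18 units in the control, 15.5 with buffer and 20.9 with rATB. Its ratio to buffer was 1.35 (1.14 to 1.59), the highest of the members past the filter, and its ratio to the control 1.16 (0.993 to 1.36). Mrpl55, of the large subunit, had 9.51, 8.02 and 10.6 units and a ratio to buffer of 1.32 (1.05 to 1.67). Mrps35, a small-subunit protein specific to mitochondria, had 18.6, 16.7 and 21.2 units and a ratio to buffer of 1.27 (1.08 to 1.49). In these 3 genes the buffer library was the lowest, and their intervals against the control include 1 at this scaling. Under each of the 3 others, those of Mrpl27 and Mrps35 exclude it. Mrpl14, Mrps24 and Mrps34 completed the 10 members furthest above both libraries, with ratios of 1.18 to 1.2 to buffer and 1.11 to 1.15 to the control.

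At the other end, Mrps28, of the small subunit, had 7.14 units in the control, 6.03 with buffer and 4.26 with rATB, from 127, 103 and 67 reads. The rATB library stood at 0.706 times buffer (0.511 to 0.970) and 0.596 times the control (0.437 to 0.808), while the interval between buffer and control, 0.645 to 1.1, included 1. It was the only member past the 5 to 4 rule below both. Mrps2, also of the small subunit, had 34.6, 29.6 and 26.9 units, with ratios of 0.907 to buffer (0.796 to 1.03) and 0.777 to the control (0.685 to 0.881). For Mrps2 the buffer library was already below the control, at 0.856 times its level (0.760 to 0.965).

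Of the large subunit, Mrpl35 had 17, 16.7 and 14 units, with ratios of 0.838 to buffer (0.700 to 1.00) and 0.820 to the control (0.686 to 0.979). Mrpl40 and Mrpl46, which sit in the central protuberance, stood at 0.879 and 0.886 times buffer and 0.880 and 0.855 times the control, and all 4 intervals include 1. Mrpl22, at the exit tunnel, had 7.31, 6.32 and 5.66 units, and both of its intervals include 1. The remaining 4 of the 10 members furthest below, Mrps22, Mrpl23, Mrpl3 and Mrpl20, had ratios of 0.856 to 0.935 to buffer and 0.879 to 0.914 to the control, and all their intervals include 1.

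**Figure D2:**
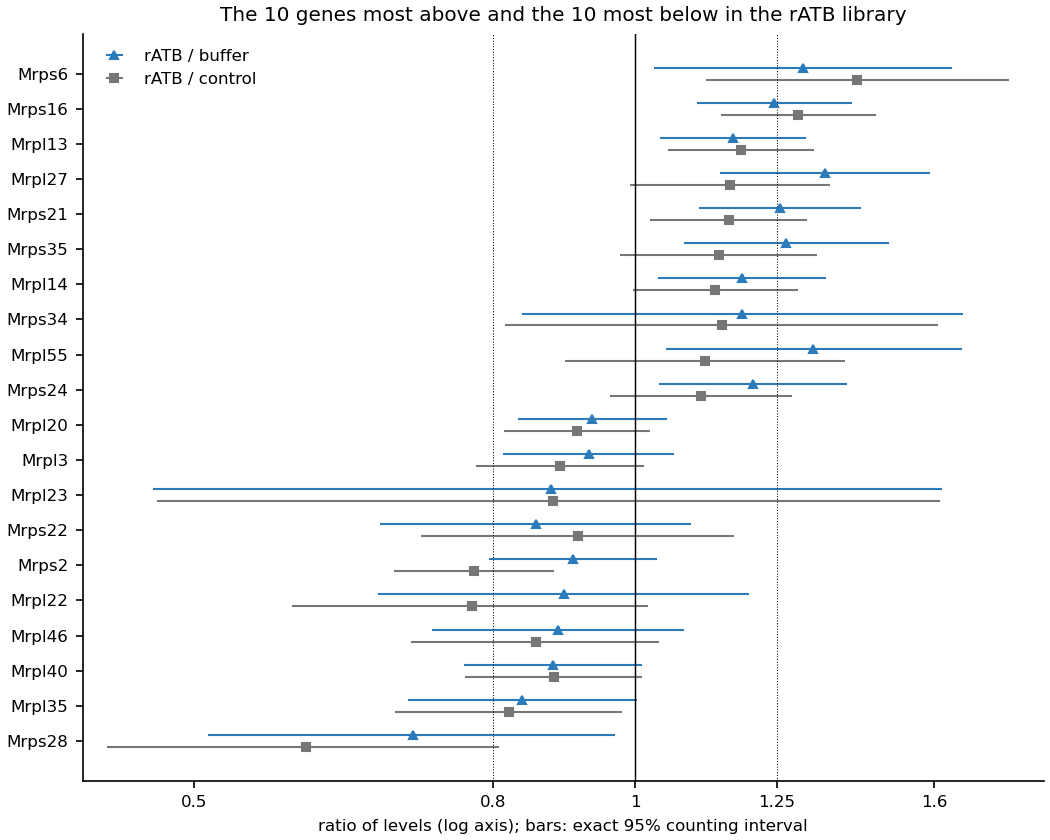
Ratio of the level with rATB to that with buffer (triangles) and to the control (squares) on a log axis, with exact 95% counting intervals, for the 10 members furthest above and the 10 furthest below both libraries. Dotted lines mark a 5 to 4 ratio either way; both intervals exclude 1 for Mrps6, Mrps16, Mrpl13, Mrps21 and Mrps28, and the rest reach 1 in at least 1 comparison.

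Both subunits held their level. The 49 members of the large subunit, which include Mrps30 and Mrps18a despite their names, summed to 1246 units in the control, 1187 with buffer and 1221 with rATB. Their median difference between rATB and buffer was -0.0028 over the 48 past the filter. The 26 members of the small subunit summed to 504.2, 487.5 and 510.0 units with a median of 0.023. Mrps36, which none of the subunit lists holds, was placed in neither, so its name alone makes it a member. The wider differences were in the small subunit: the standard deviation of its log2 ratios between rATB and control was 0.25, against 0.15 for the large subunit, and counting error was 0.15 and 0.13. Within the small subunit it was 0.30 for the 16 members with a bacterial counterpart (counting error 0.13) and 0.16 for the 10 specific to mitochondria (0.17). These differences in spread were not tested.

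The stalk of the large subunit, where translation factors dock, had no member highest with rATB, and 3 of its 4 members past the filter were lowest there, as were 44.1% of all genes. Mrpl10 stood at 37.4, 33.3 and 32.0 units in control, buffer and rATB, Mrpl11 at 28.5, 27.5 and 25.7, Mrpl12 at 23.9, 21.7 and 21.7 and Mrpl54 at 19.2, 20.1 and 19.3. Their sum with rATB was 0.962 times buffer (0.898 to 1.03) and 0.907 times the control (0.848 to 0.970). Under the 3 other scalings the ratio to the control was 0.939 to 0.943, and its interval no longer excluded 1. Among the members at the decoding centre and messenger RNA channel, Mrps12 had 9.56, 10.7 and 9.09 units, Mrps5 had 13.1, 11.1 and 11.5 and Mrps24 had 22.2, 20.4 and 24.6. Of these 3, only Mrps24 had an interval excluding 1, against buffer (1.04 to 1.40).

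Between buffer and control, members were ranked by the difference in log2(units + 1). Furthest below were Mrps11, at 0.819 times the control (0.668 to 1.00), Mrpl47, at 0.823 (0.646 to 1.05), and Mrpl45, at 0.844 (0.783 to 0.909). Mrps5 and Mrpl50 completed the 5, at 0.844 and 0.852. The 5 furthest above, Mrpl39, Mrps10, Mrps12, Mrps33 and Mrpl42, stood at 1.09 to 1.12 times the control, and all their intervals include 1. Mrpl39, with 26.6, 29.7 and 25.9 units, was below buffer with rATB, at 0.871 times its level (0.763 to 0.995).

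Mrpl45, which anchors the exit site of the large subunit to the inner membrane, was the most abundant member before any correction for length, at 89.4 units in the control, 75.5 with buffer and 93.3 with rATB. Its ratio of rATB to buffer was 1.24 (1.15 to 1.33), and that to the control was 1.04 (0.971 to 1.12), so with the deposited scaling the low value was that of the buffer library. Under the 3 other scalings the interval against the control also excluded 1. Mrpl24 came next at 54.5, 51.8 and 52.9 units, and the median member stood at 22.4 units.

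**Figure D3:**
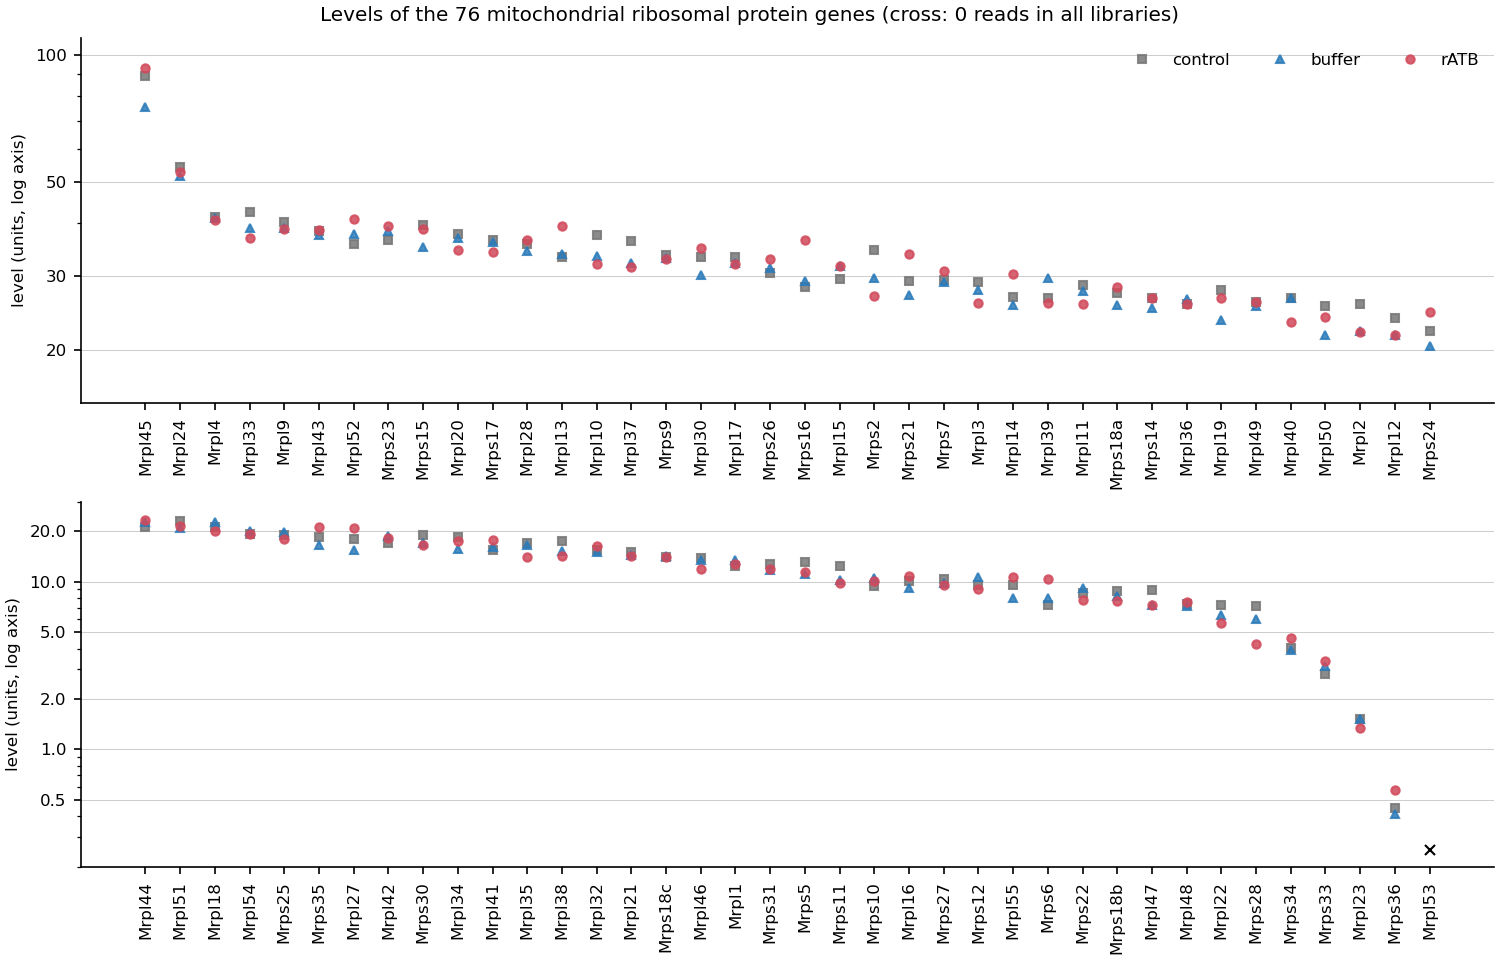
Level of each of the 76 genes in units on a log axis, in the control (squares), buffer (triangles) and rATB (circles) libraries, ordered by mean level. Mrpl45 leads at 75.5 to 93.3 units, the symbols of a gene mostly overlap, and the low end is formed by Mrpl23, Mrps36 and, marked by a cross, Mrpl53 with 0 reads.

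Levels of different genes were compared per 1000 coding bases of 1 annotated transcript. On that scale Mrpl33 was highest at 122.6 units, followed by Mrps21 at 114.9, Mrpl52 at 104.9, Mrps17 at 98.9 and Mrpl45 at 93.8. The order depended on the length used: per 1000 bases of the whole transcript, Mrpl33 ranked 29 and Mrps17 ranked 57, and Mrpl52 was highest at 91.1 units. The median per 1000 coding bases was 41.7 units for the large-subunit proteins specific to mitochondria, 40.2 for those with a bacterial counterpart, 33.8 for the small-subunit proteins with a bacterial counterpart and 10.7 for the 10 small-subunit proteins specific to mitochondria. That last class was also lowest per 1000 transcript bases, at 6.24 units against 11.6 to 17.8. It includes Mrps25 and Mrps34, whose exons overlap those of other genes, as given below. What the overlap does to the level of the class was not tested.

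Several low members share sequence or position with other genes. Mrpl53 had 0 reads in every library, for which the limit of 3 counts is 0.169, 0.176 and 0.191 units in control, buffer and rATB, and 88.0% of its exon bases lie in exons of other genes. Mrps36 had 8, 7 and 9 reads, while the pseudogene row Mrps36-ps1 had 68, 69 and 69 and Mrps36-ps2 had 35, 31 and 27. Mrpl23 had 27, 26 and 21 reads, and Mrpl23-ps1 had 254, 271 and 223. Mrpl48 had 131, 123 and 119 reads beside 170, 189 and 187 for Mrpl48-ps. How reads that match several places were counted is not stated in the labels, so the levels of these genes are uncertain.

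Mrps34 had 72, 67 and 73 reads, and 77.8% of its exon bases lie in exons of Nme3 or, on the other strand, of Mapk8ip3. Mrps25 shared 69.8% of its bases with Nr2c2 on the other strand. The library kit does not mark strand, so reads of such overlapping genes cannot be told apart.

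Some members have a neighbour that starts close by on the other strand. Of the 76, 18 had such a head-to-head partner, or 23.7%, against 11.6% of the 11229 protein-coding genes past the filter. Mrps12 shares its start region with Sars2, the mitochondrial seryl-tRNA synthetase. Sars2 had 9.79, 7.49 and 6.04 units in control, buffer and rATB, a ratio of 0.617 to the control (0.475 to 0.797), while that of Mrps12 was 0.95 (0.755 to 1.19). Against buffer the ratios were 0.806 for Sars2 (0.611 to 1.06) and 0.853 for Mrps12 (0.680 to 1.07), and both intervals include 1. Mrpl36 starts beside Ndufs6, a subunit of respiratory complex I. Ndufs6 had 14.1, 12.4 and 17 units, 1.37 times buffer with rATB (1.14 to 1.65), and Mrpl36 stood at 25.7, 26.5 and 25.7 units. Neither pair was tested for its difference.

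The 7 subunits that carry other names held no gene above (all genes 11.4%) or below (15.4%) both libraries beyond counting error. The small-subunit protein gene Dap3 had 42.4 units in the control, 47.6 with buffer and 41.9 with rATB. Ptcd3, of the small subunit, had 21.2, 25.8 and 19.1 units, at 0.741 times buffer with rATB (0.638 to 0.860). In both genes the buffer library was the highest, and the rATB library was close to the control. Gadd45gip1, of the large subunit, had 4.84, 4.39 and 6.04 units and a ratio to buffer of 1.37 (1.01 to 1.89).

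The RNAs that the mitochondrial ribosome consists of or reads had lower values with rATB. The mitochondrial ribosomal RNAs mt-Rnr1 and mt-Rnr2 together stood at 0.846 times buffer (0.829 to 0.864) and 0.881 times the control (0.864 to 0.899). The library kit selects polyadenylated RNA, so these values need not follow the amount of ribosomal RNA. Of the 13 mitochondrial messenger RNAs, 6 had at most 4 reads in any library. Of the 7 past the filter, 6 lay below both other libraries beyond counting error (all genes 15.4%). Among them, mt-Cytb had 3118 units in the control, 3242 with buffer and 2621 with rATB, a ratio to buffer of 0.808 (0.798 to 0.819). The exception, mt-Nd6, stood at 1.01 times the control (0.980 to 1.03). The sum over the 13 was 0.884 times buffer and 0.914 times the control.

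Factors that act with the mitochondrial ribosome were mixed. Of 13 translation factors, 0 were higher (all genes 9.91%) and 3 lower (11.3%) than with buffer by the 5 to 4 rule. The lowest was Mrrf, the ribosome recycling factor, at 9.23, 10.7 and 6.80 units and 0.638 times buffer (0.498 to 0.815). Of 20 assembly factors, 2 were higher and 1 lower, beside the same shares of all genes. The lower one, Tfb1m, which methylates the small-subunit ribosomal RNA, stood at 5.51, 6.27 and 3.37 units and 0.538 times buffer (0.379 to 0.754). The assembly factor gene Mrm1, a ribosomal RNA methyltransferase, had 15.8, 15.6 and 19.7 units, 1.27 times buffer (1.07 to 1.5).

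Among 17 mitochondrial aminoacyl-tRNA synthetases, Ears2, for glutamate, was the 1 gene past 2-fold (all genes 1.57% against buffer and 1.83% against the control). It had 6.53, 6.85 and 16.5 units, 2.40 times buffer (1.92 to 3.02) and 2.52 times the control (2.02 to 3.17). Lars2, for leucine, had 165.9, 157.0 and 115.0 units, 0.733 times buffer (0.690 to 0.778). Of 13 genes of mitochondrial transcription and RNA handling, 0 lay above both libraries beyond counting error (all genes 11.4%) and 4 below (15.4%). Among the 4 was Tfam, which packages the mitochondrial genome and acts in its transcription, at 25.6, 26.1 and 21.3 units.

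Among 9 regulators of mitochondrial biogenesis past the filter, 8 were lowest with rATB and 6 lay below both libraries beyond counting error, where all genes gave 44.1% and 15.4%. Myc, a transcription factor of cell growth, had 19.0 units in the control, 19.0 with buffer and 8.52 with rATB, 0.448 times buffer (0.363 to 0.549). Gabpa, the DNA-binding subunit of GABP, had 58.4, 53.9 and 45.5 units, 0.844 times buffer (0.764 to 0.931). Nrf1 had 19.5, 20.7 and 19.4 units, and both of its intervals against rATB include 1. How these lists differ from the ribosomal protein genes was not tested.

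Of the other ribosome and respiratory chain genes, the 89 cytosolic ribosomal protein genes past the filter had a median of -0.06 between rATB and buffer and -0.11 between rATB and control. Their sum with rATB was 0.951 times buffer and 0.918 times the control, 53 of them were lowest with rATB and 22 lay below both libraries beyond counting error, or 59.6% and 24.7%, against 44.1% and 15.4% of all genes. The 77 nuclear genes of oxidative phosphorylation had medians of 0.047 and -0.0036. Of them, 33 were highest with rATB, or 42.9% (all genes 33.2%), and 22 lowest, or 28.6% (44.1%). Of 15 genes of the tricarboxylic acid cycle, 10 were lowest with rATB, or 66.7%. Of 17 genes of protein import and processing, 6 were lowest, or 35.3%, and 7 highest, or 41.2%. Under the 3 other scalings the sums of cytosolic ribosomal proteins, mitochondrial RNAs, regulators and the tricarboxylic acid cycle stayed below 1 against both libraries, and that of the respiratory chain genes moved above 1 against the control.

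**Figure D4:**
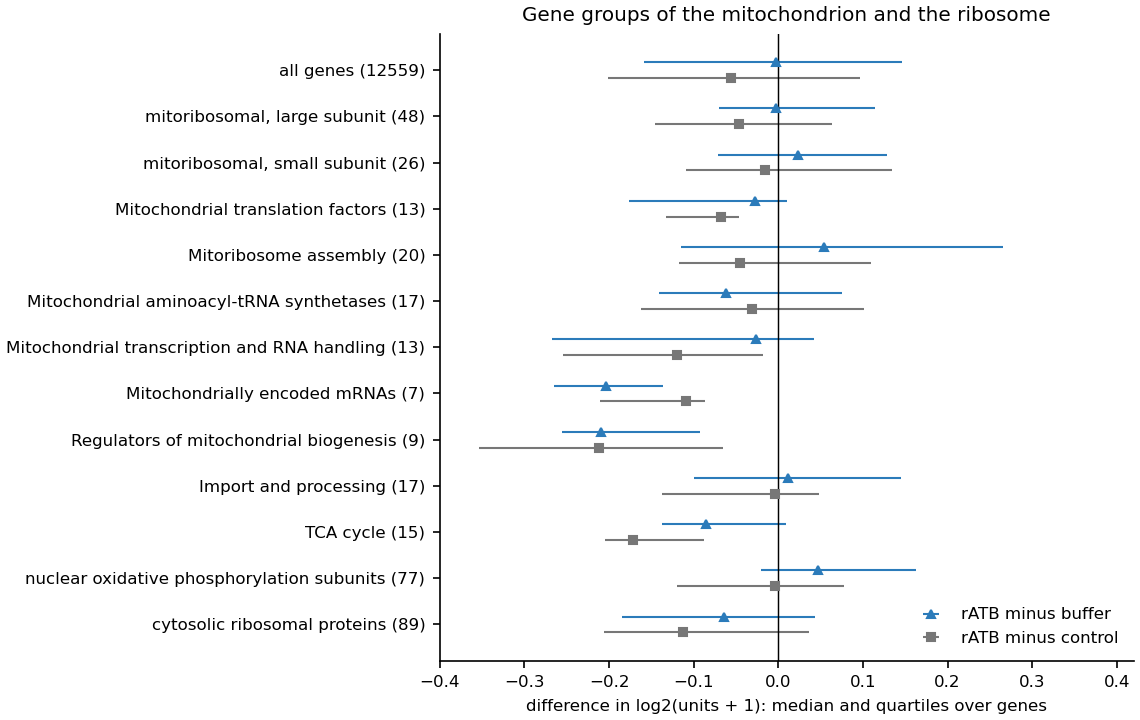
Median and quartiles over genes of the difference in log2(units + 1) between rATB and buffer (triangles) and between rATB and control (squares), with the number of genes past the filter in parentheses. Both subunits lie near 0 against buffer, at -0.0028 and 0.023, while the mitochondrial messenger RNAs lie at -0.20 and the regulators at -0.21.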

How the data were processed

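RNA sequencing was done on 3 libraries of mouse bone marrow-derived dendritic cells, 1 per group; TruSeq RNA version 2 libraries were read as paired ends, per the labels. Per the submitters' processing notes, TopHat2 2.0.13 was used and the build name is GRCh37, a human build, while the identifiers are mouse. No source used here states the counter, annotation or scaling.

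The authors deposited log2 values per gene for each library, per the file headers. Turned linear, 100% of the values above 0 were whole multiples of the smallest within a tolerance of 1e-06, so they were read as a read count times a column factor of 1, 1.04 and 1.13 for control, buffer and rATB. Spreadsheet errors, 53.1% to 54.0% of each column, were read as 0. Rows of 1 symbol were summed (37991 rows, 34590 symbols), the deposited scaling was kept, and genes averaging 1 unit or more were retained. Differences are in log2(units + 1). Size rules on that scale were 2-fold and a ratio of 5 to 4; ratio intervals are exact conditional (Clopper-Pearson) 95% intervals on reads, checked on simulated data. A count of 0 allows 3 counts. The reads carry no molecular identifiers and PCR copies are not independent, so intervals and limits cover counting error only.

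The named members were the 10 most above and 10 most below both libraries, the 5 largest differences of buffer from control each way, the 5 highest and lowest per length, those below the filter, and the stalk and decoding lists; other lists gave up to 4 genes each. A gene that several lists name counts under each. Mrpl24, Mrpl36, Mrpl48, Mrps25, Nrf1 and mt-Nd6 were named after their values were seen, as were the head-to-head partner genes and Slc5a3. The members and lists were chosen with earlier results of these data known. All 248 listed symbols were found, 7 under another symbol. Coding and transcript lengths, overlaps and head-to-head neighbours (starts within 1000 bases upstream, or overlapping by at most 100) came from GENCODE M21 in place of a planned protein table, and promoters from RefSeq (GRCm38.p6). Comparisons with rATB share that library, so they are not independent. Python 3.11.15, numpy 2.4.6, pandas 2.3.3 and scipy 1.17.1 were used. Alternatives were 3 other scalings, 2 pseudocounts, 2 filters, the highest row per symbol, the size rule, and, chosen after seeing the data, pseudogene reads added to their parents, members without large overlaps, and transcript length.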

Additional observations from a re-analysis of the deposited data

How the results depend on the processing

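Each group had 1 library, so no library could be left out, and depth limits what can be seen of single members: the widest interval between rATB and buffer among members past the filter, that of Mrpl23, spanned 3.45-fold from end to end and the median one 1.34-fold. Of 181 recomputed values, 144 moved by less than their counting error or by less than 1.5 times for counts, and 37 moved further. No paired analysis was possible because each group held 1 library and no test was made.

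Scaled to each library's total, the members' median difference of rATB from buffer was -0.035, that of rATB from control 0.013 and that of buffer from control 0.032. The sums stood at 1.01, 1.02 and 1.01 in that order, 2 members were higher than with buffer by the 5 to 4 rule and 1 was lower than the control. With median-of-ratios factors, the medians against the control were 0.020 for rATB and 0.0012 for buffer, the sums 1.03 and 0.992, and 1 member was lower with rATB than in the control. With upper-quartile scaling, these medians were 0.016 and 0.0073, again with 1 member lower.

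With a pseudocount of 0.1, 4 members were lower with rATB than in the control. With a pseudocount of 5, 1 was higher and 0 lower than with buffer, and 0 higher and 1 lower than the control. The 5 to 4 rule in place of 2-fold gave 5 members against buffer and 4 against the control. Beyond what scaling and thresholds do by construction, the cause was not tested.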
